A study of Mus musculus with 4 samples.

Results

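The genes of respiratory complexes III and IV, cytochrome c and ATP synthase were compared between proliferating and resting regulatory T-cells (Tregs). The members were all genes on the array whose symbol begins with Uqcr, Atp5 or Cox followed by a digit of 4 to 8 and a letter, together with Cyc1 and Cycs, which gave 45 of the 22180 genes measured. Of these, 43 are protein-coding and 2 are annotated as pseudogenes. Expression had been measured on 4 arrays, 2 of proliferating and 2 of resting Tregs, 1 array per sample. The cells came from mice of the NOD strain, a model of autoimmune diabetes, and both groups had spent 5 days in the same kind of co-culture with G-BMDCs, bone marrow dendritic cells raised in GM-CSF. Proliferating Tregs were those that had diluted a cell division dye and resting Tregs those that had kept it, so the groups were made by sorting after the culture and not by a treatment. The labels name the dye as CFSE and the methods as Cell Trace Violet, and the sources used here give no age for the mice. Whether the 2 samples of a group are separate cultures is not stated, so a p-value here speaks only of the spread between these arrays, and that spread may be technical.

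The mitochondrial respiratory chain passes electrons from nutrients to oxygen. Complex III takes them from ubiquinol and hands them to cytochrome c, a small mobile carrier, and complex IV (cytochrome c oxidase) takes them from cytochrome c and reduces oxygen to water. Both complexes pump protons across the inner membrane, and ATP synthase lets protons flow back through its c-ring, which turns a stalk that drives ATP formation in the F1 head. A few core subunits of these complexes are encoded in mitochondrial DNA, and all genes described here are nuclear. Complex IV is unusual in that several of its nuclear subunits exist as a ubiquitous form and as a form known mainly from another tissue such as heart, skeletal muscle, lung or testis. T-cells that leave rest and divide are known to enlarge their mitochondria and to raise both glycolysis and respiration.

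The sorted cells carried the transcripts of Tregs. All 9 Treg and T-cell markers were higher in proliferating Tregs, where 25.6% of all genes were higher and 34.5% lower, and their summed level (the sum of the values taken off the log scale) was 14282 and 14206 in proliferating against 3090 and 3187 in resting Tregs. Foxp3, the defining transcription factor of Tregs, was at 10.15 and 10.15 in proliferating and at 8.30 and 8.26 in resting Tregs. Resting arrays carried more signal from neutrophil and B-cell genes. All 10 neutrophil markers passed the test as lower in proliferating Tregs, with summed levels of 813 and 780 there against 11492 and 12649 in resting Tregs, and so did all 8 measured B-cell markers (561 and 599 in proliferating against 3679 and 3890 in resting Tregs). Of 9 measured dendritic and myeloid markers, 6 were higher and 1 lower in proliferating Tregs, with sums of 5617 and 4999 there against 1920 and 1937 in resting Tregs. Of 7 plasmacytoid dendritic cell markers 1 was higher and 5 lower in proliferating Tregs (sums of 1526 and 1544 there against 1057 and 1069 in resting Tregs), and of 6 CD8 T-cell and NK-cell markers 1 was higher and 3 lower (903 and 1012 in proliferating against 1044 and 990 in resting Tregs). No marker was at 0, because the values hold background and carry no detection call. These differences move with every result below, and their part in the results was not tested. In bulk samples, fewer cells of a type and less RNA per cell cannot be told apart. All 9 measured housekeeping genes were also higher in proliferating Tregs, by 0.35 to 3.52 on the log2 scale.

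Nearly all ubiquitous subunits rose in proliferating Tregs on the scale of the deposited values, though not once the arrays were centred on the Cd3 genes of T-cells. On the deposited scale 37 of the 45 genes passed the test as higher in proliferating Tregs, 1 as lower and 7 not at all, whereas 25.6% of all genes passed as higher and 34.5% as lower (limma, Benjamini-Hochberg adjusted p under 0.05 over all 22180 genes). The median log2 fold change, proliferating minus resting, was 1.57 over the 45 genes and −0.17 over all genes, and it turned to −0.40 over the 45 genes when the arrays were centred on the Cd3 genes. The arrays of the groups did not overlap for 44 of the 45 genes, Atp5g1 being the exception, but this held for 81.2% of all genes too. Among the 35 ubiquitous subunits and cytochrome c, 34 rose, with a median of 1.80, or 3.49-fold, on the deposited scale. The 7 genes that did not pass were Atp5g1, the isoform genes Cox4i2, Cox6a2, Cox7b2 and Cox8c, and both pseudogenes.

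**Figure D1:**
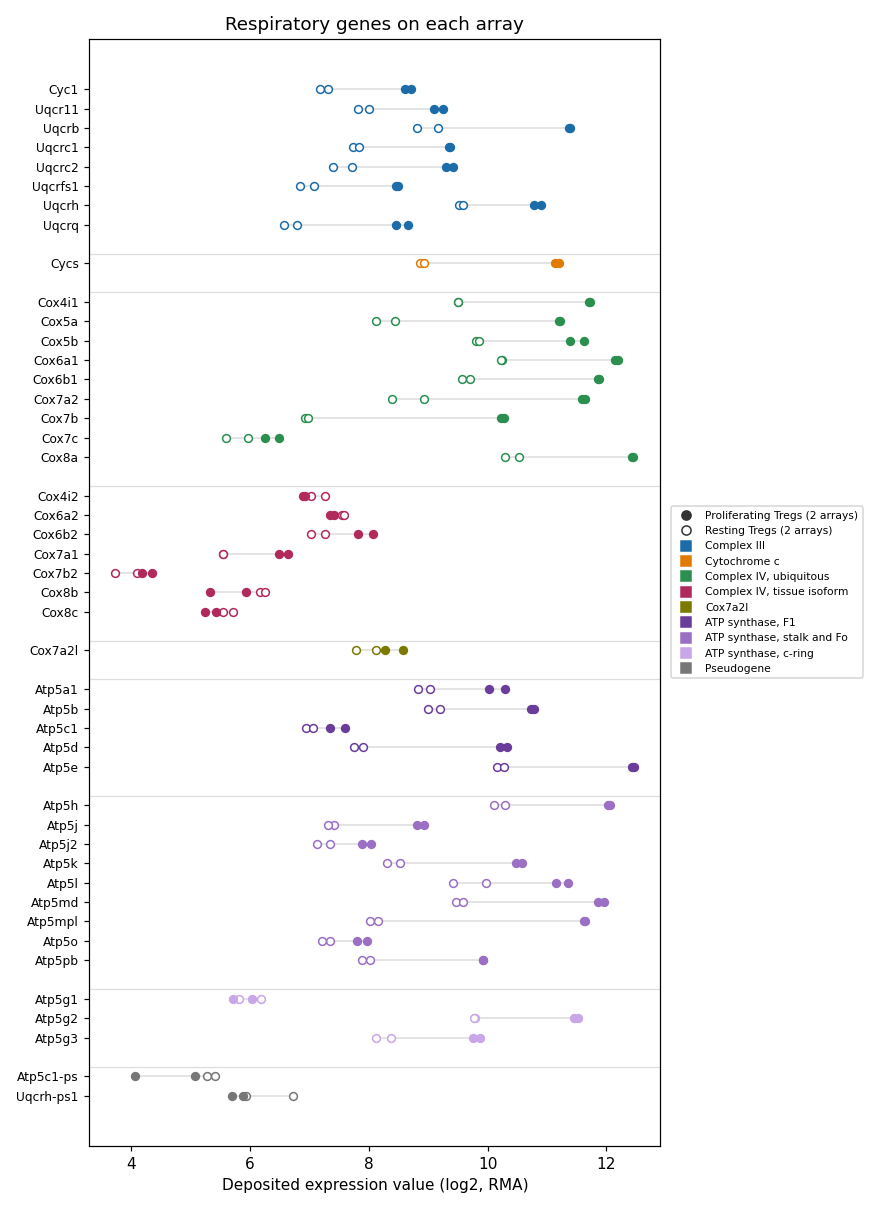
Deposited expression value (log2, x axis) of each of the 45 genes on each array, with filled points for the 2 proliferating and open points for the 2 resting arrays, grouped by complex. Uqcrb stands at 11.38 and 11.39 in proliferating against 8.81 and 9.17 in resting Tregs, whereas the arrays of Atp5g1 overlap, and values of different genes rest on different probes and are not comparable with each other.

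All 8 complex III genes rose in proliferating Tregs on the deposited scale, with a median log2 fold change of 1.54, or 2.92-fold, and a median of −0.43 under Cd3 centring. A mean of at least 8 over the arrays was held by 5 of these genes, and 79.1% of all such genes were higher. A mean under 8 was held by 3, and 21.4% of all such genes were higher. The 8 complex III genes moved within a narrow range of 1.26 to 2.39, with an SD over genes of 0.38 against 0.83 over all genes. Uqcrb, a small accessory subunit near the ubiquinone site, had the largest change. It was at 11.38 and 11.39 in proliferating and at 8.81 and 9.17 in resting Tregs, a log2 fold change of 2.39 ± 0.16 (SE, adjusted p = 2.6e-05). Uqcrq, another small membrane subunit, was at 8.46 and 8.65 in proliferating against 6.57 and 6.79 in resting Tregs (1.87 ± 0.15). Uqcrc2, a core protein of the matrix side, was at 9.43 and 9.30 in proliferating against 7.40 and 7.72 in resting Tregs (1.80 ± 0.15). In these genes, as in all 8 of the complex, the lower proliferating array lay more than 1 log2 unit above the higher resting array. The groups did not overlap for 81.2% of all genes, and the share of all genes more than 1 unit apart was not counted. The subunits that carry electrons were in the middle and lower part of the range. Cyc1, cytochrome c1, which hands electrons to cytochrome c, was at 8.60 and 8.70 in proliferating and at 7.18 and 7.32 in resting Tregs (1.40 ± 0.13). Uqcrfs1, the Rieske iron-sulfur protein, had a log2 fold change of 1.52 and Uqcrc1, the other core protein, one of 1.57. Both lowest genes are accessory subunits. Uqcrh, the hinge protein that docks cytochrome c1, was at 10.89 and 10.78 in proliferating against 9.52 and 9.59 in resting Tregs (1.28 ± 0.13), and Uqcr11 was at 9.25 and 9.10 in proliferating against 7.82 and 8.01 in resting Tregs (1.26 ± 0.14, adjusted p = 0.000263). No complex III call was lost when any array was left out.

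Cycs, the cytochrome c of somatic cells, rose 4.82-fold in proliferating Tregs. It was at 11.20 and 11.13 in proliferating and at 8.86 and 8.93 in resting Tregs, a log2 fold change of 2.27 ± 0.13 (adjusted p = 1.66e-05). The array holds 5 probe sets for Cycs, and the other 4 gave 2.08, 2.56, 3.38 and 3.38, the last pair with identical values on every array. Cycs stayed above 0 under Cd3 centring, at 0.30, but did not pass the test there.

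All 9 ubiquitous complex IV subunits rose in proliferating Tregs, with a median log2 fold change of 2.22, or 4.64-fold, on the deposited scale and of 0.78 and 0.25 under housekeeping and Cd3 centring. Of these, 8 had a mean of at least 8 over the 4 arrays, where 79.1% of all genes were higher, and 1 a mean under 8, where 21.4% were. Cox7b, a small membrane subunit, had the largest change of the complex by its brightest probe set, 9.89-fold. It was at 10.28 and 10.23 in proliferating against 6.92 and 6.98 in resting Tregs (3.31 ± 0.13, adjusted p = 7.67e-06), and its other probe set gave 1.54. With the mean of both sets it was 2.42, below Cox7a2 and Cox5a. Cox7a2, which lies at the surface where complex IV meets partner complexes, was at 11.60 and 11.63 in proliferating and at 8.39 and 8.93 in resting Tregs (2.96 ± 0.19). Cox5a, a matrix-side subunit, was at 11.20 and 11.22 in proliferating and at 8.11 and 8.44 in resting Tregs (2.93 ± 0.15). These 3 genes kept their call under all scalings tried. A middle group changed between 3.82-fold and 4.69-fold. Cox6b1, which faces the intermembrane space, was at 11.87 and 11.86 in proliferating against 9.56 and 9.71 in resting Tregs (2.23 ± 0.13). Cox4i1, a subunit known to bind ATP and so to regulate the oxidase, was at 11.71 and 11.72 in proliferating against 9.50 and 9.50 in resting Tregs (2.22 ± 0.12). Cox8a was at 12.44 and 12.45 in proliferating against 10.52 and 10.29 in resting Tregs (2.04 ± 0.14). In each of these, replicate arrays lay far closer to each other than to the other group. Cox6a1 was at 12.14 and 12.19 in proliferating against 10.25 and 10.22 in resting Tregs (1.93 ± 0.12). Cox5b, the zinc-binding subunit, was at 11.39 and 11.62 in proliferating against 9.80 and 9.86 in resting Tregs (1.67 ± 0.14), with 1.31 from its other probe set. The mean of Cox7c, 6.08, lay below the medians of the resting arrays, and no detection call shows whether it stands above background. Cox7c had the smallest change of the complex. It was at 6.49 and 6.26 in proliferating and at 5.96 and 5.59 in resting Tregs (0.60 ± 0.17, adjusted p = 0.0174), and its call was lost without the second resting array (0.41, adjusted p = 0.131).

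**Figure D2:**
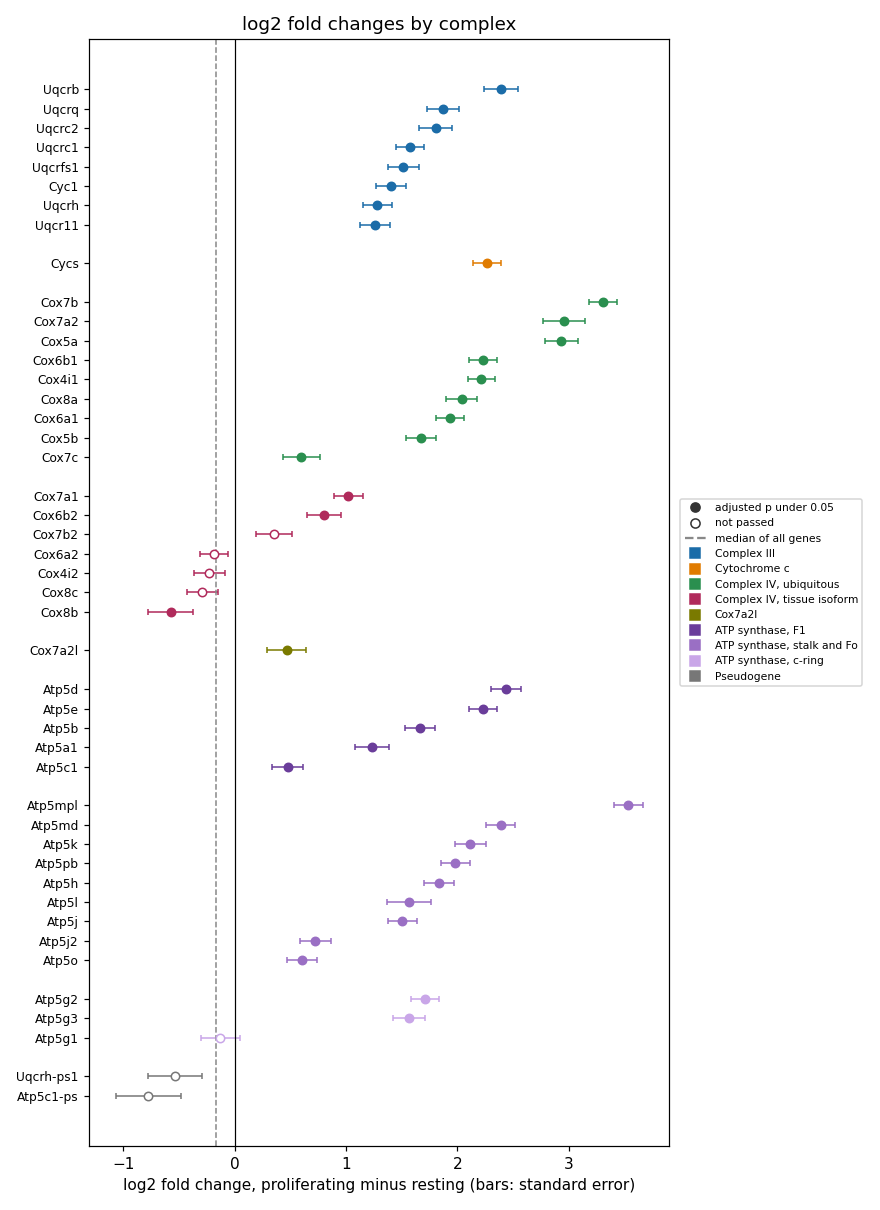
Log2 fold change of each gene, proliferating minus resting (x axis, bars are the standard error from limma), by complex, with open points for genes that did not pass and a dashed line at the median of all genes. Ubiquitous subunits lie between 0.47 and 3.54 except Atp5g1 at −0.13, and tissue isoform genes between −0.58 and 1.02, all on the deposited scale, while centring on the Cd3 genes would shift every point down by 1.97 and turn most of the complex III and ATP synthase genes negative.

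The isoform genes of other tissues had a median change close to that of all genes on the deposited scale. Of the 7 such complex IV genes, 2 were higher in proliferating Tregs, 1 was lower and 4 did not pass, beside 25.6% higher and 34.5% lower over all genes, with a median of −0.19 against −0.17 over all genes, and under housekeeping or Cd3 centring all 7 were lower. Cox7a1, the form of heart and skeletal muscle, was at 6.64 and 6.49 in proliferating and at 5.55 and 5.54 in resting Tregs, a 2.03-fold rise (1.02 ± 0.13, adjusted p = 0.000527). Cox6b2, known from testis, was at 7.82 and 8.08 in proliferating and at 7.03 and 7.26 in resting Tregs (0.81 ± 0.15, adjusted p = 0.00331). Both passed in the same direction as their ubiquitous partners and kept their call when any array was left out. Cox8b, a form of heart and skeletal muscle, was at 5.33 and 5.93 in proliferating and at 6.17 and 6.25 in resting Tregs (−0.58 ± 0.20, adjusted p = 0.038). Its call was lost without the first proliferating array (−0.28), without the first resting array (−0.62), without the second resting array (−0.54) and after median centring (−0.29) or quantile normalization (−0.29). The remaining 4 did not pass on the deposited scale. Cox4i2, the lung form, was at 6.93 and 6.89 in proliferating and at 7.02 and 7.26 in resting Tregs (−0.23, adjusted p = 0.183). Cox6a2, of heart and skeletal muscle, was at 7.41 and 7.35 in proliferating and at 7.54 and 7.59 in resting Tregs (−0.19, adjusted p = 0.23), and it passed as lower after quantile normalization (−0.47, adjusted p = 0.0205). Cox7b2 and Cox8c are known from testis. Cox7b2 was at 4.36 and 4.18 in proliferating and at 3.73 and 4.10 in resting Tregs (0.36, adjusted p = 0.0917), and it passed as higher after median centring (0.64, adjusted p = 0.0128). Cox8c was at 5.43 and 5.25 in proliferating and at 5.55 and 5.71 in resting Tregs (−0.29, adjusted p = 0.105). A low value on these arrays is not a sign of absence, since background stays in it.

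Markers of muscle and testis were counted in the same way, beside the 25.6% of all genes that were higher and the 34.5% that were lower. Of 9 muscle markers 4 were lower in proliferating Tregs and 5 did not pass (summed levels of 585 and 644 in proliferating against 864 and 827 in resting Tregs). Of 6 measured testis markers 1 was higher, 2 were lower and 3 did not pass, with sums of 1013 and 922 in proliferating against 394 and 363 in resting Tregs. The testis sum was carried by Tnp2, a sperm chromatin protein, at 9.56 and 9.40 in proliferating against 6.48 and 6.40 in resting Tregs. The part of these signals in the isoform values was not tested.

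Within each array, the value of the isoform partner was subtracted from that of the ubiquitous form. No centring of arrays can move this difference, though a wider spread of values can. This difference was larger in proliferating Tregs in all 7 pairs, by 2.95 log2 units for Cox7b over Cox7b2, 2.62 for Cox8a over Cox8b, 2.45 for Cox4i1 over Cox4i2, 2.33 for Cox8a over Cox8c, 2.12 for Cox6a1 over Cox6a2, 1.94 for Cox7a2 over Cox7a1 and 1.42 for Cox6b1 over Cox6b2. The SD between replicate arrays of these differences was at most 0.41, and the groups did not overlap in any of the 7, beside 81.2% of all single genes. The share over pairs of genes was not counted, and the pairs with Cox8b and Cox8c share Cox8a. On the deposited scale the median log2 fold change was 1.20 over all genes with a mean of at least 8 and −0.22 over those under 8. A difference between a bright and a dim gene also grows with the spread of values. The SD over genes was 1.43 and 1.44 in proliferating against 1.13 in each resting array, and the part of this was not tested. With 2 arrays a side the exact permutation test gave a two-sided p = 0.333 for each of the 7 pairs. This is the smallest p that the design allows, and adjustment over the 10 pairs computed could only raise it. Over the settings tried, the smallest of these 7 differences ranged from 1.23 to 1.56 and the largest from 2.07 to 3.10. The smallest value of any was 1.23, for Cox6b1 over Cox6b2 after quantile normalization. The mean values of Cox7b2 (4.09), Cox8c (5.48) and Cox8b (5.92) lay below the median of every array, that of Cox7a1 (6.05) below the resting medians only, and those of Cox4i2 (7.03), Cox6a2 (7.47) and Cox6b2 (7.54) above all of them, and no detection call shows which stand above background. For a partner at background the difference cannot be told apart from the change of the ubiquitous form alone.

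**Figure D3:**
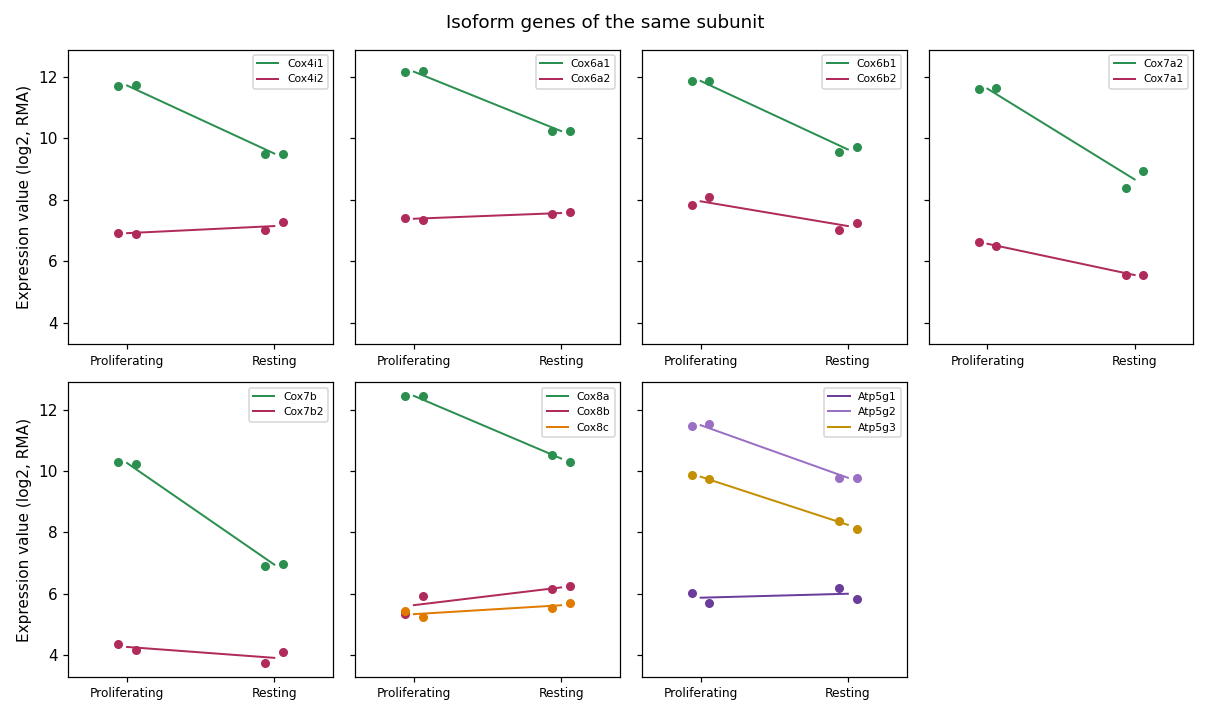
Expression value (log2, y axis) of the isoform genes of 6 complex IV subunits and of the ATP synthase c-ring on each array, proliferating left and resting right, with a line joining group means. The line of the ubiquitous complex IV form climbs more steeply toward the proliferating side than that of its partner in every panel, by 1.42 to 2.95 log2 units, although partners with low values may lie at background, and the height of different genes reflects their probes and is not comparable. Values spread more widely over genes in proliferating arrays, and the part of this in the lines was not tested.

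Of the 17 ATP synthase genes 16 rose in proliferating Tregs and 1, Atp5g1, did not pass, with a median log2 fold change of 1.67, or 3.17-fold, on the deposited scale and of −0.30 under Cd3 centring. With a mean of at least 8 over the 4 arrays 13 of 13 were higher, beside 79.1% of all such genes. Under 8 it was 3 of 4, beside 21.4%. All 5 genes of the F1 head and its central stalk rose, with a median of 1.67. Atp5b, the catalytic beta subunit, was at 10.74 and 10.79 in proliferating and at 8.99 and 9.20 in resting Tregs (1.67 ± 0.14). Atp5a1, the alpha subunit that alternates with beta in the head, was at 10.02 and 10.30 in proliferating against 8.83 and 9.02 in resting Tregs (1.23 ± 0.15). The small rotor subunits changed more and the large rotor subunit less. Atp5d, the delta subunit, was at 10.33 and 10.20 in proliferating against 7.76 and 7.90 in resting Tregs (2.44 ± 0.13), although its other probe set gave 0.92. Atp5e, the epsilon subunit, had a log2 fold change of 2.23, and 2.96 from its other probe set. Atp5c1, the gamma subunit that forms the rotating shaft, was at 7.35 and 7.61 in proliferating against 6.95 and 7.07 in resting Tregs (0.47 ± 0.14, adjusted p = 0.0232). This call was lost without the second proliferating array (0.35), without the first resting array (0.41), without the second resting array (0.53) and after quantile normalization (0.35).

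All 9 genes of the peripheral stalk and the membrane part other than the c-ring rose on the deposited scale, with a median log2 fold change of 1.84, and 5 of them turned below 0 under Cd3 centring. Of the 9 genes 7 had a mean of at least 8 over the 4 arrays, where 79.1% of all genes were higher. The largest change of all 45 genes was that of Atp5mpl, a very small membrane protein attached to ATP synthase. It was at 11.63 and 11.62 in proliferating and at 8.02 and 8.15 in resting Tregs, 11.6-fold (3.54 ± 0.13, adjusted p = 7.67e-06), and 1.57 under Cd3 centring. Atp5md, another small associated protein known from the dimer interface, was at 11.97 and 11.86 in proliferating against 9.47 and 9.59 in resting Tregs (2.39 ± 0.13). Atp5k, the e subunit of the same interface, was at 10.58 and 10.48 in proliferating against 8.30 and 8.53 in resting Tregs (2.12 ± 0.14). Atp5l, the g subunit beside it, followed with 1.56 ± 0.20. Among peripheral stalk subunits, Atp5pb (subunit b) had 1.98, Atp5h (subunit d) 1.84 and Atp5j (factor F6) 1.50. The other probe set of Atp5h had a low signal and gave 0.34 (adjusted p = 0.203). Atp5o, the OSCP subunit that joins the stalk to the head, had the smallest change of the stalk. It was at 7.97 and 7.81 in proliferating against 7.35 and 7.22 in resting Tregs (0.60 ± 0.14, adjusted p = 0.007), and its call was lost without the second resting array (0.53) and after quantile normalization (0.31). Atp5j2, subunit f, had 0.72 ± 0.14, and 0.43 after quantile normalization, where its call was lost.

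The c-ring, through which protons pass, is built from identical proteins that 3 genes encode with different import sequences. Atp5g2 was at 11.46 and 11.53 in proliferating and at 9.78 and 9.78 in resting Tregs (1.71 ± 0.13), with 1.84 from its other probe set. Atp5g3 was at 9.87 and 9.75 in proliferating and at 8.37 and 8.12 in resting Tregs (1.57 ± 0.14). Atp5g1 was at 6.04 and 5.71 in proliferating and at 6.19 and 5.82 in resting Tregs, overlapping groups with a log2 fold change of −0.13 ± 0.18 (adjusted p = 0.551). Within arrays, the difference from Atp5g1 was larger in proliferating Tregs by 1.84 log2 units for Atp5g2 and by 1.69 for Atp5g3, with no overlap of the groups in either (exact permutation p = 0.333, the smallest possible). The groups did not overlap for 81.2% of all single genes either, and the share over pairs of genes was not counted. Over the settings tried these differences ranged from 1.04 to 2.04 and from 0.80 to 1.80. The wider spread of values in proliferating arrays can enlarge such differences too, which was not tested. The mean of Atp5g1, 5.94, lay below the median of every array, and if it is at background the differences cannot be told apart from the changes of Atp5g2 and Atp5g3 alone. Atp5g2 and Atp5g3 differed by 0.15 with overlapping groups (exact permutation p = 0.667).

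Cox7a2l, a relative of Cox7a2 that joins complexes III and IV into supercomplexes, was at 8.57 and 8.27 in proliferating and at 8.13 and 7.79 in resting Tregs. Its log2 fold change of 0.47 ± 0.17 passed narrowly (adjusted p = 0.0474), was lost without the first proliferating array (0.31), the first resting array (0.64) or the second resting array (0.29), and was −0.060 after quantile normalization. The pseudogenes did not pass. Atp5c1-ps was at 4.06 and 5.08 in proliferating and at 5.28 and 5.41 in resting Tregs (−0.78, adjusted p = 0.0514), and without the second proliferating array it was −1.29 and passed. Uqcrh-ps1 was at 5.70 and 5.88 in proliferating and at 6.73 and 5.93 in resting Tregs (−0.54, adjusted p = 0.0931), and without the second resting array it was −0.94 and passed. Probes of a pseudogene may share sequence with the parent gene, so these values are uncertain. The genes were measured by 55 probe sets with 1 gene name. In the 7 genes with several, 9 of the 10 probe sets not used also passed as higher in proliferating Tregs, the other set of Atp5h being the exception.

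Fold change and signal went together on these arrays. Of the 28 genes with a mean of at least 8 over the 4 arrays all 28 were higher in proliferating Tregs, against 79.1% of all genes with such a mean, whose median log2 fold change was 1.20. Of the 17 genes with a mean under 8, 9 were higher, against 21.4% of all such genes, whose median was −0.22. This split was chosen after the values had been seen, and the mean holds the proliferating arrays, so a gene high there reaches 8 more easily. Cox7b reached it with a mean of 6.95 in resting Tregs. Centred on the Cd3 genes 7 of the 45 genes were higher, and on housekeeping genes 17. Across genes, log2 fold change and mean value had a Pearson r of 0.763 over the 45 genes and of 0.383 over all genes. It is given as a description because genes share the same 4 arrays and are not independent. The r over all genes also reflects the spread of values. The SD over genes was 1.43 and 1.44 in proliferating against 1.13 in each resting array. All 7 tissue isoform genes had a mean under 8, as did the pseudogenes, Cox7c, Atp5g1, Atp5c1, Atp5o and Atp5j2. Complex III held 3 genes with a mean under 8, Cyc1, Uqcrfs1 and Uqcrq, and all 3 rose by 1.40 to 1.87.

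**Figure D4:**
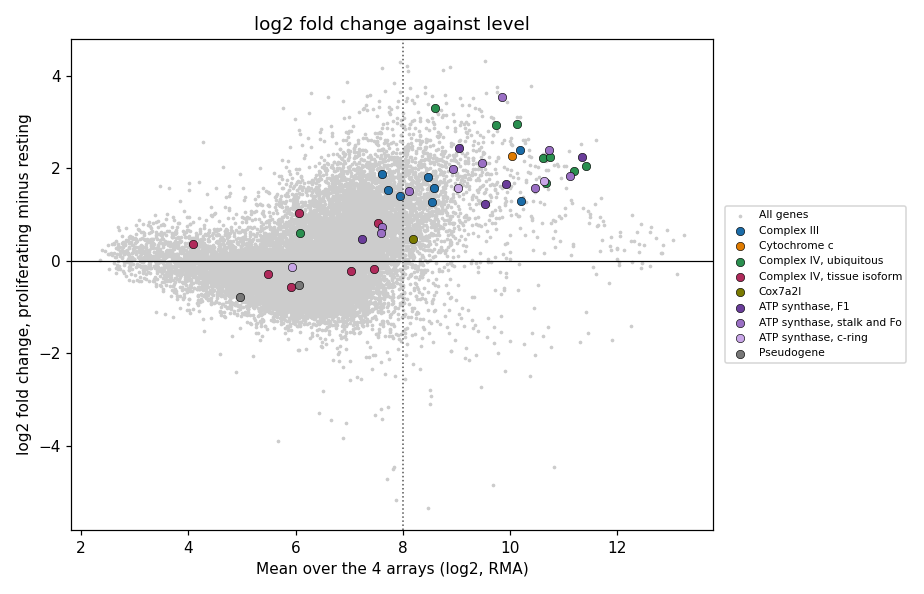
Log2 fold change, proliferating minus resting (y axis), against the mean value over the 4 arrays (x axis, log2), with all genes in grey, the 45 genes coloured by complex and a dotted line at a mean of 8. All 28 coloured genes at or right of the line lie above 0 on the deposited scale, where the median of all genes is 1.20, and left of it 9 of 17 passed as higher, while Cd3 centring lowers every point by 1.97. The mean holds the proliferating arrays, so genes high there lie further right.

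Centring moves every gene by the same amount, and among the 45 genes, counting those that passed before or after, the direction turned in 24 under Cd3 centring, in 12 under housekeeping centring, in 1 after quantile normalization and in 0 after median centring. Over all probe sets, proliferating arrays had medians of 5.995 and 5.97 and resting arrays of 6.27 and 6.27, and the SD over genes was 1.43 and 1.44 in proliferating against 1.13 in each resting array. Housekeeping genes were 1.44 higher and Cd3d, Cd3e and Cd3g 1.97 higher on average in proliferating Tregs. The housekeeping mean leaned on Hprt (3.52) and Pgk1 (3.43), while the other housekeeping genes were higher by 0.35 to 1.49. A centring without Hprt and Pgk1 was not run. Centred on housekeeping genes, 17 of the 45 genes passed as higher and 15 as lower, with a median of 0.13, and all genes then had a median of −1.61. Centred on the Cd3 genes, 7 were higher and 24 lower, with medians of −0.40 over the 45 genes and −2.14 over all genes. The distance of the members from all genes does not move with a centring, and their median lay 1.74 above that of all genes. By complex this distance was 2.39 for ubiquitous complex IV, 1.84 for ATP synthase, 1.72 for complex III and −0.01 for the tissue isoform genes. These distances are not matched for level. All genes with a mean of at least 8 had a median of 1.20, and those under 8 one of −0.22. A mean of at least 8 was held by 8 of 9 complex IV, 13 of 17 ATP synthase, 5 of 8 complex III and 0 of 7 isoform genes. The part of level in the distances was not tested. After quantile normalization, 33 of the 45 genes were higher and 1 lower, with a median of 1.07. The genes still called higher after Cd3 centring were Uqcrb (0.42), Cox5a (0.96), Cox7a2 (0.99), Cox7b (1.34), Atp5d (0.47), Atp5md (0.42) and Atp5mpl (1.57).

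**Figure D5:**
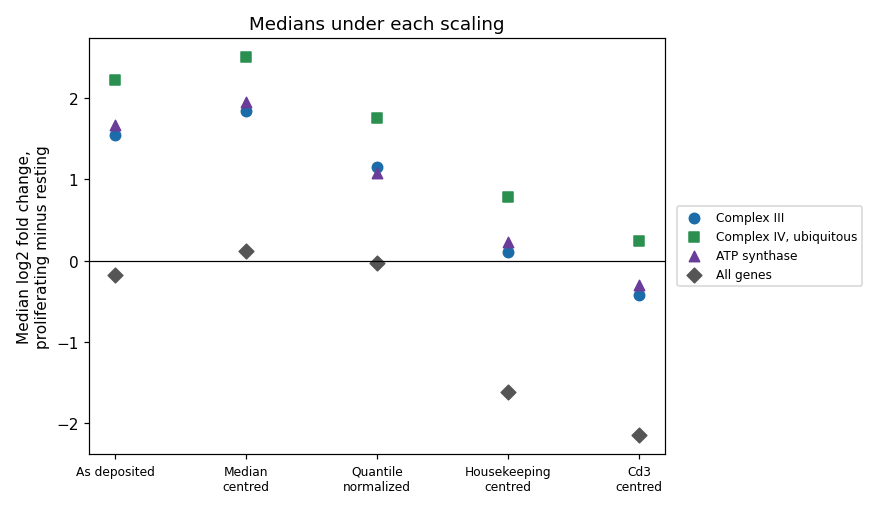
Median log2 fold change, proliferating minus resting (y axis), of complex III, ubiquitous complex IV, ATP synthase and all genes under 5 scalings of the arrays (x axis). On the deposited scale the median is 1.54 for complex III, 2.22 for complex IV, 1.67 for ATP synthase and −0.17 for all genes, and under Cd3 centring complex III (−0.43) and ATP synthase (−0.30) turn below 0 while all genes fall to −2.14.

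Promoter sequences were set beside these values, because nuclear respiratory genes are known targets of NRF1 and of the ETS-family factor GABP. Of the 45 genes 33 had a promoter in the RefSeq table of GRCm38.p6, 250 bases before to 50 after the start: 28 ubiquitous subunits, 4 tissue isoform genes and Cox7a2l. The NRF1 core CGCATGCG, searched on both strands, was present in 8 of the 33 (24.2%), against 2.77% of 17491 coding genes and 1.87% of all 32851 promoters. The ETS motif CCGGAAG, also on both strands, was in 11 of the 33 (33.3%), against 12.9% of coding genes and 8.86% of all promoters. ATGGCGG, a spelling of the YY1 motif, was in 6.06% of the 33 and 6.05% of coding genes, another YY1 spelling, AAGATGG, was in 12.1% and 7.18%, and the Sp1 box GGGCGG in 39.4% and 49.2%. ATGGCGG and the Sp1 box end alike but neither contains the other. In all 12 spellings were tried, and those given here were chosen after the counts were known. A shorter ETS spelling contained in the first, CGGAAG, was in 18 of the 33 (54.5%) and 23.5% of coding genes. Uqcr11, Atp5j, Atp5k, Atp5l and Cox6a1 held both NRF1 and ETS motifs, which 0.600% of coding genes do. None of the 4 tissue isoform genes held either motif, but only 15.1% of coding genes do, so 4 genes are too few to show a lack. A match is a run of letters and not a shown binding site, and its absence says only that these letters are not in the window.

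The promoters of 4 genes that rose and hold the NRF1 core, and of Cox8b, which does not, are shown to make these counts visible. They come from RefSeq (GRCm38.p6) and run from 5′ to 3′ on the minus strand, on which all 5 genes lie, in lower case with NRF1 and ETS matches of either strand in capitals.
Uqcr11, chr10:80406772-80407071: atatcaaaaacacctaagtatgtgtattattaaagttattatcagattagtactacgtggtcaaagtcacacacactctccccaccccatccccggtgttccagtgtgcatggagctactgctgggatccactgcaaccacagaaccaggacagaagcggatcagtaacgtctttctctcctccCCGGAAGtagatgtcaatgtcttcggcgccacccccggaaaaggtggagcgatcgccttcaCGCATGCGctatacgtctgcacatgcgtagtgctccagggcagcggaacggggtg
Cox6a1, chr5:115348909-115349208: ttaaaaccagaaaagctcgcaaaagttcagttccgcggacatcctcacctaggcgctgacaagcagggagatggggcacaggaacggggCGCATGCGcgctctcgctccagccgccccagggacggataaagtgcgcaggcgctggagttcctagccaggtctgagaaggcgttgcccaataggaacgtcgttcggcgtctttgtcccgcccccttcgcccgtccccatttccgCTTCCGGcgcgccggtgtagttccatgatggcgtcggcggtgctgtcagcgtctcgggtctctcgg
Atp5k, chr5:108434350-108434649: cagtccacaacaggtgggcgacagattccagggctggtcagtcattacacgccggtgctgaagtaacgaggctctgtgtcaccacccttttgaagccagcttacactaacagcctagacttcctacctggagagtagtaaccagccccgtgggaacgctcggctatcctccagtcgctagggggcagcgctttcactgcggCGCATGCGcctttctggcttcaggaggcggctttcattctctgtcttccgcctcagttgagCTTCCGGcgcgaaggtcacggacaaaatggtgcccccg
Cycs, chr6:50566520-50566819: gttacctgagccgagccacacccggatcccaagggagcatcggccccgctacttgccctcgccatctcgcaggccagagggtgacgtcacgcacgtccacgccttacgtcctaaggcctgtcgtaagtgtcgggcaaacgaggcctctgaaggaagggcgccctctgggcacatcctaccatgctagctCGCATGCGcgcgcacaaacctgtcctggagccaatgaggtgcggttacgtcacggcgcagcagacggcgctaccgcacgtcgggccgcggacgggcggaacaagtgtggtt
Cox8b, chr7:140900397-140900696: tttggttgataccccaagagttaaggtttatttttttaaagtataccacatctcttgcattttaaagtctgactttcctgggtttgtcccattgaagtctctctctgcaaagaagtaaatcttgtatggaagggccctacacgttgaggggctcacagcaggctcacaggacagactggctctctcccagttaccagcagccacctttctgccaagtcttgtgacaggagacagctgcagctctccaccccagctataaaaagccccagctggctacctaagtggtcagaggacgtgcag
The NRF1 core begins 5 bases before the start in Uqcr11, 49 before it in Atp5k, 61 in Cycs and 161 in Cox6a1. Cycs holds no ETS match, and the other 3 hold 1 each. The log2 fold changes of these genes were 1.26 for Uqcr11, 1.93 for Cox6a1, 2.12 for Atp5k, 2.27 for Cycs and −0.58 for Cox8b. Among the 28 ubiquitous genes with a promoter, the 14 with either motif had a median of 1.88 (1.26 to 2.39) and the 14 with neither a median of 1.62 (−0.13 to 3.31), the first range lying within the second, and the largest change among them, that of Cox7b, went without either motif.

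Other genes of the pathway changed alongside on the deposited scale, where 36 of 48 measured genes from 5 lists were higher in proliferating Tregs, 1 was lower and 11 did not pass, while centred on the Cd3 genes 3 were higher and 38 lower. The shares of all genes were 25.6% higher and 34.5% lower. By level, 13 of 13 of these genes with a mean of at least 8 were higher, beside 79.1% of all such genes, and 23 of 35 with a mean under 8, beside 21.4%. Of 20 measured complex IV assembly factors 18 rose on that scale, with a median log2 fold change of 1.24. Cmc1, which acts early in the assembly of the oxidase, was at 9.32 and 9.22 in proliferating and at 5.67 and 5.99 in resting Tregs, 10.8-fold (3.44 ± 0.15, adjusted p = 1.02e-05). Cox20, a chaperone of the mitochondrially encoded subunit Cox2, was at 9.45 and 9.50 in proliferating against 6.41 and 6.72 in resting Tregs (2.92 ± 0.15), and Cmc2 and Pet100, also assembly factors, had 2.36 and 2.26. Cmc1, Cox20 and Cmc2 kept their call under Cd3 centring, at 1.47, 0.95 and 0.39. Complex III assembly was mixed, with 3 of 6 factors higher and a median of 0.29. Uqcc2 and Uqcc3, which help cytochrome b mature, changed by 2.08 and 1.91 on the log2 scale. All 4 measured assembly and inhibitory factors of ATP synthase rose on the deposited scale, with a median of 1.18, of which Atpif1, the inhibitor that blocks its reverse action, had 1.56 and Tmem70, which helps build the c-ring, 1.34, and both lay below 0 under Cd3 centring (−0.41 and −0.63). All 4 complex II genes rose on that scale, with a median of 1.42, and Sdhd and Sdhb, a membrane anchor and the iron-sulfur subunit, had 1.69 and 1.49, against −0.28 and −0.48 under Cd3 centring.

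Among 14 regulators of respiratory genes 7 rose in proliferating Tregs, 1 fell and 6 did not pass, with a median of 0.50 on the deposited scale. Of the 12 with a mean under 8, 5 were higher, beside 21.4% of all such genes, and of the other 2 both, beside 79.1%. Tfam, which packages and transcribes mitochondrial DNA, was at 7.75 and 7.80 in proliferating and at 5.74 and 6.14 in resting Tregs (1.83 ± 0.16, adjusted p = 9.36e-05, and −0.14 under Cd3 centring). Tfb1m, which modifies mitochondrial ribosomal RNA, had 1.51. Of the subunits of GABP, whose ETS motif is given above, Gabpb1 had 1.18 and Gabpa 1.03, and both turned below 0 under housekeeping centring (−0.26 and −0.40). Gabpb2, another GABP subunit on the list and named after its values were seen, had −0.018. It did not pass (limma adjusted p = 0.942), and its groups overlapped. The regulator that fell, named after its value was seen, was Esrra, a nuclear receptor known to raise respiratory genes with its coactivators. It was at 7.24 and 7.23 in proliferating and at 7.69 and 7.78 in resting Tregs (−0.50 ± 0.13, adjusted p = 0.0115). This call was lost without the first resting array (−0.54), without the second (−0.45) and after median centring (−0.21). Nrf1, named for its motif after its values were seen, averaged 7.19 ± 0.26 in proliferating and 6.79 ± 0.019 in resting Tregs (SD, n = 2 each). Its log2 fold change of 0.40 did not pass (SE 0.16, limma adjusted p = 0.0594). It passed as higher without the first proliferating array (0.58) and after median centring (0.68). The same held with the trended and robust prior, without genes of a mean under 6 and with a replicate block. Under housekeeping (−1.04) and Cd3 centring (−1.57) it passed as lower. The 6 listed mitochondrially encoded subunits were not analysed here.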

How the data were processed

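RNA of proliferating and resting Tregs had been labelled for an Affymetrix whole-transcript array. According to their processing notes the authors made the deposited log2 values with RMA in Partek 6.6. RMA subtracts background, gives the arrays one distribution of probe signals and summarises the probes of a set. The methods instead name another array design and normalization with housekeeping gene controls. The table states no scale, and log2 was taken from RMA and the range of the values, so the centring stays unknown. The genome build is not given in the sources used here.

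Of 41345 probe sets 23521 carried 1 gene name, 1820 several and 16004 none. Per gene, the set with 1 name and the highest mean over the 4 arrays was used, which gave 22180 genes. All 45 members matched RefSeq by gene ID, and 2 further genes, present only on sets with several names, were not analysed here. No filter was applied. The comparison ran in limma 3.58.1 (lmFit, then eBayes, under R 4.3.3) with 2 residual and 5.48 prior degrees of freedom, and with Benjamini-Hochberg adjustment over all 22180 genes at 0.05. Differences between isoform partners were tested by exact permutation over arrays (scipy 1.17.1). In simulated data for this comparison of 22180 genes, the fit recovered 10 of 50 genes shifted by 0.5 log2 units, 48 of 50 shifted by 1, 50 of 50 shifted by 2 and 50 of 50 shifted by 3, with 14 false calls. Only these genes were shifted, whereas in the real data 25.6% of genes passed as higher and 34.5% as lower. The adjusted threshold is stricter with so few changes, so these rates do not describe the real comparison.

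The members, the lists and the tests were chosen with earlier results of these data known. Values on every array are given for tissue isoforms and their partners, c-ring genes, Cyc1, Cycs, Cox7a2l and the 3 highest and 3 lowest members by complex, every member that did not pass is named, and up to 4 genes of largest change are named per other list, with marker and housekeeping genes only as they bear on a result. Alternatives were other priors, a filter on genes with a mean under 6, the mean of the probe sets, quantile normalization, centring on the median, on housekeeping genes or on Cd3d, Cd3e and Cd3g, a replicate block, each array left out (its lone partner is assumed to vary like the other group), the methods' t-test and a minimum change of 1 on the log2 scale.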

Additional observations from a re-analysis of the deposited data

How the results depend on the processing

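Directions depended on centrings that move every gene by the same amount. Among the 45 respiratory genes, counting those that passed before or after, 24 turned under Cd3 centring, 12 under housekeeping centring, 1 after quantile normalization and 0 after median centring. Centred on housekeeping genes, 888 of all genes were higher in proliferating Tregs and 19651 lower. Of the respiratory genes 17 were then higher and 15 lower, with a median of 0.13, among them 2 higher in complex III, 7 in ATP synthase and 0 of the tissue isoforms, 7 of which were lower. Of the other pathway genes 6 were higher and 25 lower. The log2 fold changes that turned negative there were Cyc1 −0.034, Uqcr11 −0.18, Uqcrh −0.16, Cox7c −0.84, Cox6b2 −0.63, Cox7a1 −0.42, Cox7b2 −1.08, Cox7a2l −0.97, Atp5a1 −0.20, Atp5c1 −0.97, Atp5j2 −0.71, Atp5o −0.84, Tmem70 −0.10, Gabpb1 −0.26, Gabpa −0.40 and Nrf1 −1.04. Centred on the Cd3 genes, 329 of all genes were higher and 21009 lower, and of the respiratory genes 7 and 24, with 1 higher in complex III, 3 in complex IV, 3 in ATP synthase and 0 of the tissue isoforms, 7 of which were lower. Of the other pathway genes 3 were higher and 38 lower. The medians were −0.40 over all respiratory genes, −0.43 for complex III and −0.30 for ATP synthase, and these log2 fold changes turned negative: Cyc1 −0.57, Uqcr11 −0.71, Uqcrc1 −0.40, Uqcrc2 −0.17, Uqcrfs1 −0.45, Uqcrh −0.69, Uqcrq −0.10, Cox5b −0.30, Cox6a1 −0.036, Cox7c −1.37, Cox6b2 −1.16, Cox7a1 −0.95, Cox7b2 −1.61, Cox7a2l −1.50, Atp5a1 −0.74, Atp5b −0.30, Atp5c1 −1.50, Atp5h −0.13, Atp5j −0.47, Atp5j2 −1.25, Atp5l −0.41, Atp5o −1.37, Atp5g2 −0.26, Atp5g3 −0.40, Uqcc3 −0.057, Atpif1 −0.41, Tmem70 −0.63, Sdhd −0.28, Sdhb −0.48, Tfam −0.14, Tfb1m −0.46, Gabpb1 −0.79, Gabpa −0.94 and Nrf1 −1.57. Both shifts follow from the construction of the centring, since these genes were higher in proliferating Tregs.

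Median centring left 3350 genes lower in proliferating Tregs, 0 respiratory genes, 0 tissue isoforms and 0 other pathway genes lower, raised Cox7b2 past the threshold, with 3 tissue isoforms and 38 respiratory genes higher, and gave a members' median of 1.85. Quantile normalization left 4702 genes lower, 2 of them other pathway genes, with Cox6a2 as the tissue isoform lower in place of Cox8b, gave medians of 1.07 and 1.10 above all genes, and turned Cox7a2l to −0.060. Leaving out dim genes gave medians of 1.67 and 1.66 and 0 tissue isoforms lower. The mean of a gene's probe sets gave 2 other pathway genes lower, and the trended and robust prior 2 respiratory genes lower. The methods' t-test at 0.05 called 5072 genes lower and, of other pathway genes, 2, with 34 respiratory genes higher. After Benjamini-Hochberg adjustment it called 2781 genes higher and 1531 lower, 0 respiratory genes lower and 29 higher, 1 tissue isoform higher and 0 lower, and 23 other pathway genes higher. A minimum change of 1 on the log2 scale left 2796 genes higher and 981 lower, 0 respiratory genes lower, 1 tissue isoform higher and 0 lower, and 0 other pathway genes lower.

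With each array left out in turn, 33 to 36 respiratory genes were higher in proliferating Tregs and 0 to 2 lower, 0 to 1 tissue isoforms were lower, 0 to 2 other pathway genes were lower and 3962 to 7537 genes were lower in all, with 3962 without the first resting array and 4428 without the second. Whether the numbers of the samples pair them could not be settled with 2 arrays a group. Deviations from the group means correlated by 0.0179 between arrays of the same number. With the number as a replicate block, 5765 genes were higher and 7929 lower, and 37 respiratory genes were higher and 2 lower, the second being Atp5c1-ps. The cause of these changes other than those of centring, smaller gene sets and fewer arrays was not tested. The differences between isoform partners kept their sign under every setting that gave a value. Signal over background could not be judged, because the table holds no detection calls, and 2 arrays a group limit the precision.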
